A study of Mus musculus with 30 samples.

Results

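MCA-943 and MCA-970 are primary tumor cell lines, each derived from 1 fibrosarcoma induced in a mouse with the carcinogen methylcholanthrene (MCA). Tumors grown from them in C57BL/6 mice were compared, 4 whose titles start with MCA943 and 6 whose titles start with MCA970, which is 10 of the 30 tumors sequenced, the others coming from MCA-948, MCA-969 and MCA-972. The comparison concerned the autosomal genes that differ between MCA-943, classed as not sensitive to NK1.1+ cells, and MCA-970, classed as sensitive. The study took these classes from survival with and without an antibody that depletes NK1.1+ cells, among them NK cells, ILC1 and NKT cells. The mouse strain was labelled Ncr1Cre for MCA-943 and Ncr1Cre R26DTA for MCA-970, both on the C57BL/6 background. In Ncr1Cre mice the Cre recombinase follows the gene of the NK cell receptor NKp46, and with R26DTA it switches on a diphtheria toxin that kills the cells expressing it. The hosts were C57BL/6 mice and, by the study's methods, MCA was given to mice of these strains, so that the strain is read here as that of the mouse in which the line arose. The labels give neither ages nor the meaning of the letters W and a in the titles. MCA-943 had 1 tumor with the letter W (W-2G) and 3 with a (a-1D, a-1G, a-R), and MCA-970 had 3 of each (W-1D, W-2D, W-R, a-1D, a-2D, a-2G). The tumors were dissociated and depleted of CD45+ hematopoietic cells with beads. Every tumor of a line descends from the same culture, so that the tumors are replicates of a line, and a difference between the lines is one between 2 primary tumors, not between classes of sensitivity.

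Fibrosarcomas are malignant tumors of mesenchymal cells, which make collagen and the other proteins of the extracellular matrix. Cells of this kind keep through culture a memory of their place in the body in the Hox genes, whose clusters are expressed in an order that follows the body axis. Tumor cells present antigen on MHC class I, and interferons raise MHC class I together with a large set of antiviral genes. MCA acts through DNA damage, and tumors that it induces carry many point mutations and gains or losses of chromosomes, so that each is a different tumor.

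Between 30025426 and 45111926 counts fell on genes per MCA-943 tumor, and between 27745104 and 43696938 per MCA-970 tumor. Levels are given as CPM, counts per 1000000 counts after TMM normalization, as mean ± SD over the tumors of a line (n = 4 for MCA-943 and n = 6 for MCA-970). Where a line had no count at all, the level may still have been up to that of 3 counts, 0.0906 CPM on average in MCA-943, a limit that covers counting error only. Correlations between tumors were taken on counts put on DESeq2's variance-stabilized scale. They lay between 0.9925 and 0.9964 within MCA-943, between 0.9862 and 0.9969 within MCA-970 and between 0.9297 and 0.9419 across the lines. The lines share no library run: the MCA-943 libraries were in the third run and the MCA-970 libraries in the second, and MCA-948 is the line with tumors in both (6 and 2). The difference between these runs can thus be removed only through MCA-948. Its 2 tumors of the second run both carry the letter a, while those of the third run carry both letters. Values with the run in the model rest on these tumors and also carry the letter. The lines also differ in sex-linked RNA, with Xist at 551 CPM in MCA-943 and 0.0488 CPM in MCA-970, and 4 Y-linked genes summing to 4.05 and 116 CPM, and only genes on chromosomes 1 to 19 are described below. The mesenchymal markers of the labelled tissue were present in both lines: 80480 to 94730 CPM in MCA-943 and 51250 to 63910 CPM in MCA-970.

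The test was edgeR's quasi-likelihood test, fitted to all 30 tumors with the line as a factor. At a Benjamini-Hochberg adjusted p below 0.05 and a change of 1 or more on the log2 scale, 2040 of 16200 autosomal genes tested were called higher in MCA-943 (12.6%) and 2382 lower (14.7%), together 27.3%. At the extremes, 143 genes were called higher by at least 4 on the log2 scale and 415 lower. The tumors of the lines did not overlap at 55.5% of the genes tested. With the run in the model, 1963 genes were called higher (12.1%) and 1674 lower (10.3%). Of the first calls, 1367 higher genes (67%) and 1404 lower genes (58.9%) were called in the same direction in both fits, and 0 in opposite directions. The share of higher genes among all calls was 46.1%, and 54% with the run in the model. Between the runs within MCA-948, 2.28% of the genes were called, with 130 higher and 239 lower in the third run. Of those, 142 were called in the same direction between the lines and 33 in the opposite one. The median absolute log2 difference was 0.56 between the lines and 0.28 between the runs of MCA-948. The letters W and a within MCA-970 differed at 0.154% of the genes, 24 higher and 1 lower in W. Where a named gene lost its call with the run in the model, that value stands beside it, and the tumors of the lines did not overlap in a named gene unless this is said. Values in brackets after a pair of levels are log2 fold changes of MCA-943 over MCA-970 with their SE. Each SE is the absolute log2 fold change divided by the square root of the test's F statistic.

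The genes highest over MCA-970 included Msln, Plet1, Actg2 and Tnnt2. Mesothelin (Msln, chr17:25748613-25754378), a surface protein of mesothelium, was at 28.7, 31, 66.6 and 26.4 CPM in the MCA-943 tumors W-2G, a-1D, a-1G and a-R and between 0 and 0.0368 CPM (median 0) in MCA-970, 2 counts in all (adjusted p = 7.17e-13). The a-1G tumor stood above the other 3, and the groups were far apart. Plet1 (chr9:50494525-50505482), a surface protein of placental and epithelial progenitor cells, was at 141, 103, 118 and 126 CPM in MCA-943 and between 0.183 and 0.368 CPM (median 0.29) in MCA-970, a log2 fold change of 8.71 ± 0.36 (SE, adjusted p = 2.44e-17). Actg2, the smooth muscle gamma-actin, reached 118 ± 9.08 against 1.17 ± 0.79 CPM (log2 fold change 6.64 ± 0.46), and Tnnt2, a troponin of cardiac muscle, 48.5 ± 10.6 against 0.651 ± 0.3 CPM (6.21 ± 0.33). The lines overlapped in neither gene, which the rule that chose them required.

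The other genes of the 12 had various roles. Ifi27l2a, an interferon-stimulated gene, was at 104, 81.2, 45.9 and 125 CPM in MCA-943 and between 0.552 and 1.68 CPM (median 0.703) in MCA-970 (log2 fold change 6.60 ± 0.40, adjusted p = 5.93e-14), and its 4 MCA-943 values differed among themselves more than those of Plet1. Tnfrsf26, a receptor of the TNF family, was at 140.1 ± 10.8 against 2.2 ± 0.887 CPM, Ltc4s, the leukotriene C4 synthase, at 28.9 ± 2.19 against 0.548 ± 0.181, and Entpd2, an ectonucleotidase that hydrolyses extracellular ATP, at 59.5 ± 5.86 against 1.23 ± 0.664. Spib, an Ets factor of B cells and dendritic cells, was at 5.8 ± 1.4 against 0.103 ± 0.099 CPM, the peptide transporter Slc15a2 at 6.39 ± 1.19 against 0.139 ± 0.15, and Csmd1, a complement inhibitor, at 10.5 ± 3.27 against 0.111 ± 0.114. Dynap, whose protein binds dynactin, was at 28.5 ± 2.44 against 0.0244 ± 0.0362 CPM. MCA-943 was the highest of the 5 lines for Ifi27l2a, Csmd1, Tnnt2, Tnfrsf26, Spib, Ltc4s, Entpd2, Slc15a2, Plet1 and Actg2, whereas Msln was at 48.6 CPM in MCA-969 and Dynap at 30.8 CPM in MCA-948.

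**Figure D1:**
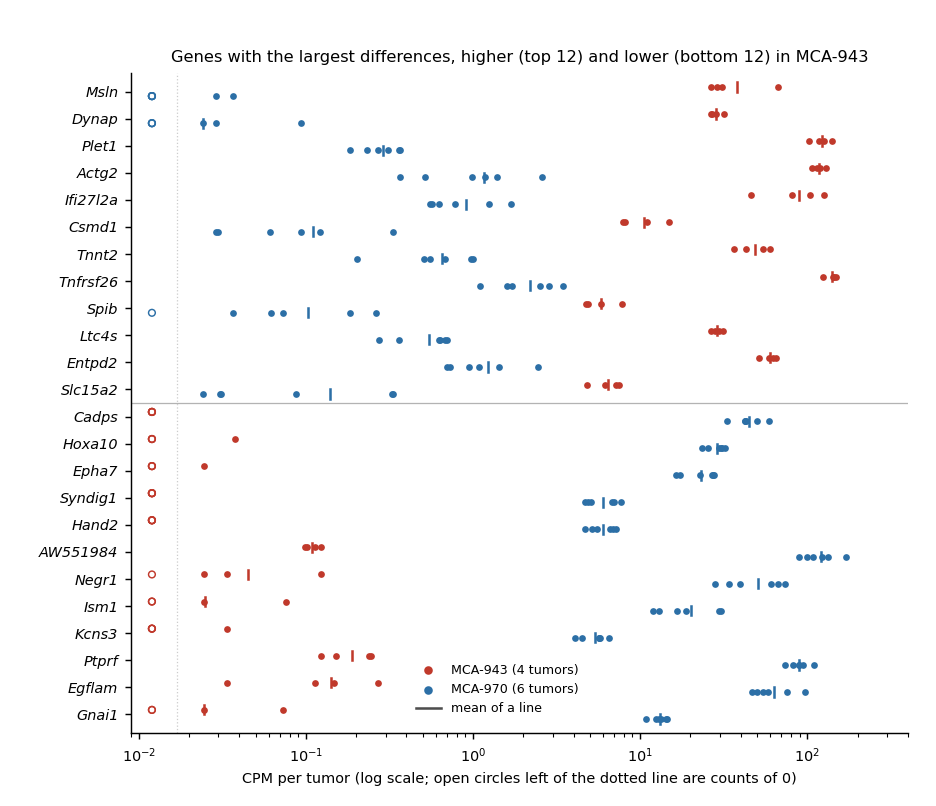
CPM of the 12 genes raised most and the 12 genes lowered most in MCA-943 by the rule for named genes (rows), on a log axis, for each of the 4 MCA-943 tumors (red) and the 6 MCA-970 tumors (blue), with a bar at the mean of a line where it lies right of the dotted line; open circles stand for a count of 0. No gene shown overlaps between the lines, which the rule required, and Cadps, Syndig1 and Hand2 have no count in any MCA-943 tumor.

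In the other direction, 3 of the 12 genes had no count in MCA-943. Cadps (chr14:12372563-12823079), which primes secretory vesicles for release, had no count in any MCA-943 tumor and lay between 32.9 and 58.8 CPM (median 42.8) in MCA-970, at least 495-fold higher there. Syndig1, a protein of excitatory synapses, and Hand2, a transcription factor of heart and posterior limb, had no count in MCA-943 either and means of 6.02 ± 1.3 and 5.997 ± 1.03 CPM in MCA-970, at least 66.4-fold and 66.2-fold higher. Hoxa10, Epha7, Kcns3 and Ism1 had 1, 1, 1 and 3 counts in all MCA-943 tumors together and means of 28.7 ± 3.44, 23 ± 5.1, 5.36 ± 0.907 and 20.04 ± 8.13 CPM in MCA-970. Epha7 is a receptor of ephrins and Kcns3 a potassium channel subunit. Since a fitted fold change of such genes depends on the prior count, none is given.

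Ptprf, a receptor phosphatase of cell contacts, was at 0.237, 0.247, 0.151 and 0.122 CPM in MCA-943 and between 73.2 and 109 CPM (median 89.3) in MCA-970 (log2 fold change -8.86 ± 0.27, adjusted p = 2.24e-20), and it lay at 52.4, 46 and 123 CPM in MCA-948, MCA-969 and MCA-972, so that MCA-943 stood apart from all 4 other lines. Egflam, the matrix protein pikachurin, was at 0.141 ± 0.0988 against 63.6 ± 19.2 CPM, the neuronal adhesion protein Negr1 at 0.0452 ± 0.0534 against 50.6 ± 18.9, the inhibitory G protein subunit Gnai1 at 0.0245 ± 0.0346 against 13.1 ± 1.35, and AW551984, which has no assigned role, at 0.109 ± 0.011 against 121 ± 29.5. The 24 genes of both directions were called with the run in the model as well and did not overlap, since the rule that chose them required both.

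Some of the differences followed the chromosomes. The median log2 fold change was -0.82 on chromosome 3, 0.61 on chromosome 7, 0.49 on chromosome 10, -0.27 on chromosome 6 and 0.23 on chromosome 15, and it lay within 0.15 of 0 on 14 of 19 autosomes. On chromosome 3, 371 genes, or 39.3% of those tested, were called lower in MCA-943 and 54 (5.73%) higher. On chromosome 7, 353 of 1255 were called higher (28.1%), and on chromosome 10, 157 of 753 (20.8%). The shift ran over the whole length: in windows of 50 neighbouring tested genes, the median was below 0 in all 19 windows of chromosome 3 (from -1.30 to -0.30), and above 0 in all 25 of chromosome 7 (from 0.41 to 1.03) and all 15 of chromosome 10 (from 0.28 to 0.73). On chromosome 9 the last 4 windows, from position 107563255 on, had medians between 0.36 and 0.73, above every other window of that chromosome.

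Each tumor was then set against the mean of the 5 lines, as the median log2 deviation of a chromosome's genes. Chromosome 3 was at -0.43 to -0.37 in the MCA-943 tumors and 0.40 to 0.46 in the MCA-970 tumors, and the other lines lay between -0.18 and 0.11, so that both lines departed from the rest. Chromosome 7 was at 0.31 to 0.36 in MCA-943 and -0.27 to -0.23 in MCA-970, where MCA-972 was lower still, at -0.34 to -0.31. On chromosome 10, MCA-970 was at -0.33 to -0.27 and MCA-943 at 0.13 to 0.19, and on chromosome 6, MCA-970 was at 0.18 to 0.34 and MCA-943 at -0.06 to -0.02. The tumors of the lines did not overlap on 13 autosomes. Between the runs within MCA-948, the medians were 0.02 on chromosome 3, -0.07 on chromosome 7 and -0.07 on chromosome 10. With each autosome's median subtracted, an alternative added after the data were seen, 1751 genes were called higher and 2180 lower. Copy number was not measured here.

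**Figure D2:**
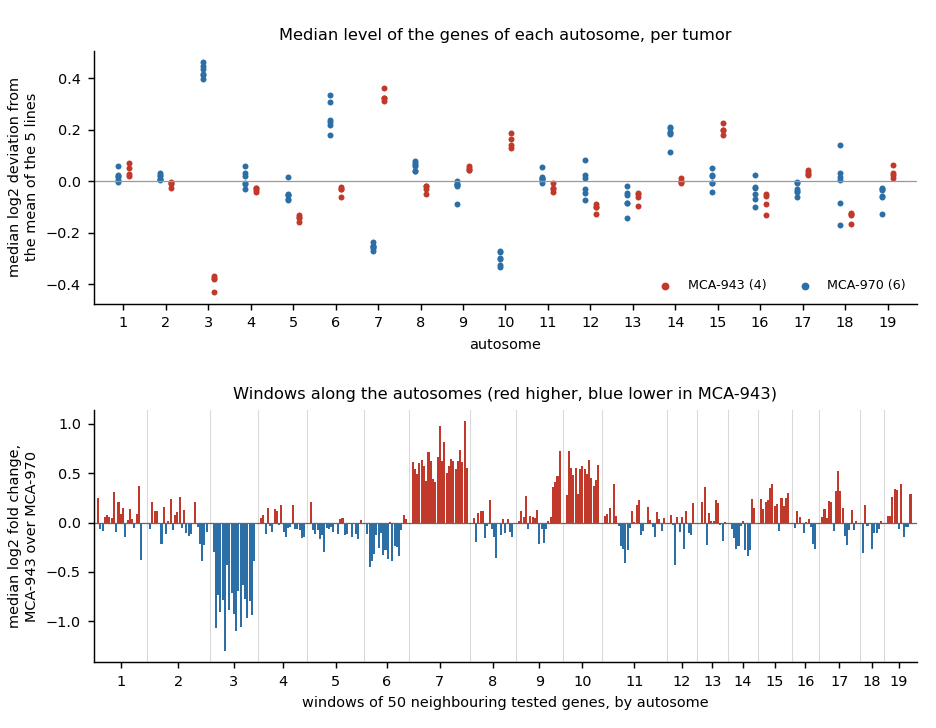
Upper panel: for each tumor (points) and autosome, the median over its tested genes of the log2 deviation from the mean of the 5 lines. Lower panel: median log2 fold change of MCA-943 over MCA-970 in windows of 50 neighbouring tested genes along each autosome. Chromosomes 7 and 10 lie above 0 and chromosome 3 below 0 in every window.

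In places the genes called in 1 direction stood side by side. Rows of at least 6 neighbouring tested genes called alike, counted after the data were seen, numbered 13, of which 3 lay on chromosome 3. The longest held 12 genes, from Gm12184 to Ifi47 at chr11:48825346-49096974, among them the interferon-inducible GTPases Irgm1, Tgtp1, Tgtp2 and Ifi47, all higher in MCA-943 with a median log2 fold change of 2.71, and 8 of the 12 were called alike with the run in the model. The row from Gm53 to Hoxb2 at chr11:96251105-96354012 held 11 genes, all lower, with log2 fold changes from -8.31 to -4.95 (10 called alike with the run in the model). The row from Gm12606 to Elavl2 at chr4:89235699-91400785 held 7 genes with a median of -5.12, all called alike with the run, and the row from Meg3 to Mirg at chr12:109541001-109749460 held 7 with a median of -2.72, of which 4 were. The Oas genes at chr5:120730333-120907521 formed a row of 6 higher genes, the Trim genes at chr7:104244457-104507849 another, and H2-T24 and its neighbours at chr17:36005695-36145923 a row of 7. With the run in the model, 2 of the 6 Oas genes, all 6 Trim genes and 3 of the 7 genes around H2-T24 were called higher.

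Cdkn2a, which encodes the cell cycle inhibitor p16Ink4a and the p53 activator p19Arf, lies in the row on chromosome 4. It was at 5.42, 28.1, 8.54 and 30.02 CPM in the MCA-943 tumors and between 573 and 678 CPM (median 642) in MCA-970 (log2 fold change -5.12 ± 0.34, adjusted p = 5e-13). Its neighbour Cdkn2b, the inhibitor p15Ink4b, was at 0.779, 2.44, 1.44 and 3.97 CPM in MCA-943 and between 73.9 and 89.2 CPM (median 84.4) in MCA-970 (-5.21 ± 0.28, adjusted p = 3.85e-15). Both genes were lowest in W-2G and highest in a-R among the MCA-943 tumors, and a-R was also the MCA-943 tumor with the highest summed endothelial markers, at 338 CPM against 212 to 231 CPM in the other 3. The part of other cells in these values was not tested, and in bulk samples fewer cells of a type and less RNA per cell cannot be told apart. MCA-943 was apart from all other lines here, with Cdkn2a at 444, 504 and 459.6 CPM in MCA-948, MCA-969 and MCA-972. The next protein-coding genes tested, taken after the values were seen, split at this point. On one side Mtap, an enzyme of methionine salvage, was at 217 ± 18.4 against 164 ± 5.004 CPM and Klhl9 at 92.2 ± 3.22 against 62.3 ± 3.61 CPM, both past an adjusted p of 0.05 but under the fold threshold. With the run in the model they had log2 fold changes of 0.17 and -0.19 (adjusted p = 0.552 and 0.322). On the other side Dmrta1 was at 0.209 ± 0.0156 against 2.44 ± 0.764 CPM (log2 fold change -3.51 ± 0.51) and Elavl2 at 0.091 ± 0.0735 against 0.601 ± 0.102 CPM (-2.65 ± 0.52), both called lower.

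Among 40 genes of the p53, Ink4 and Rb pathways tested, 7 were called higher and 2 lower (6 and 3 with the run in the model), the lower ones being Cdkn2a and Cdkn2b. Trp53, the gene of p53 (chr11:69580359-69591873), was at 115, 109, 109 and 116 CPM in MCA-943 and between 21.1 and 29.6 CPM (median 23.9) in MCA-970, a log2 fold change of 2.16 ± 0.28 (adjusted p = 2e-07). The mean was 142 CPM in MCA-969, 93.6 CPM in MCA-972 and 2.15 CPM in MCA-948, so that MCA-970 lay between MCA-948 and the other 3 lines. Wrap53 overlaps Trp53 on the other strand and had a log2 fold change of -0.67, and without a stated strand setting the reads of the pair cannot be told apart. Phlda3, a p53 target that restrains Akt, was at 61.4 ± 4.64 against 15.1 ± 1.7 CPM (2.03 ± 0.12), and the p53 homologue Trp63 at 1.14 ± 0.366 against 0.242 ± 0.195 CPM (2.21 ± 0.52, adjusted p = 0.0771 with the run in the model). Of 40 genes of the cell cycle, 2 were called higher and 0 lower (1 and 1 with the run in the model): Mki67, the gene of the Ki-67 antigen, at 345 ± 27.8 against 121 ± 15.7 CPM (1.51 ± 0.12), and Prc1, which bundles microtubules in division, at 154 ± 13.3 against 70.3 ± 11.3 CPM (1.14 ± 0.12, and 0.76 with the run in the model, under the fold threshold). Both lie on chromosome 7. The share called was 5% of the cell cycle list and 22.5% of the p53, Ink4 and Rb list, against 27.3% of all autosomal genes tested. Pcna, the sliding clamp of DNA replication, was at 133 ± 17.9 against 142 ± 25 CPM (overlapping, adjusted p = 0.629).

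The Hox genes set the lines apart by cluster. Of 30 Hox genes tested, 6 were called higher and 14 lower in MCA-943, against 12.6% and 14.7% of all autosomal genes, and 4 and 12 with the run in the model. All 8 Hoxb genes tested were called lower. Hoxb9 was at 0.237, 0.0493, 0.265 and 0.196 CPM in MCA-943 and between 52.7 and 61.2 CPM (median 58.2) in MCA-970 (log2 fold change -8.31 ± 0.67, adjusted p = 2.09e-11). Across Hoxb2 to Hoxb9, no MCA-943 tumor passed 0.392 CPM and no MCA-970 tumor lay below 2.03 CPM, a value of Hoxb5. In MCA-948 and MCA-969, Hoxb6 was at 12.1 and 13.1 CPM, and in MCA-972 at 0.171 CPM.

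In the Hoxa cluster 4 of 10 genes tested were called lower and 2 higher. Hoxa4 was lower (-1.37 ± 0.32, adjusted p = 0.644 with the run in the model) and Hoxa2 higher (1.26 ± 0.42, and 0.89 and not called with the run in the model), and the genes from Hoxa9 to Hoxa11 were lower. Hoxa9 was at 0.0724 ± 0.0727 against 16.4 ± 2.11 CPM, Hoxa10 at 28.7 ± 3.44 CPM in MCA-970 with 1 count in MCA-943, and Hoxa11 at 1.49 ± 0.315 CPM in MCA-970 with no count in MCA-943, at least 16.4-fold. Hoxa11 was not called with the run in the model. It had no count in MCA-948, the only line in both runs, so that this fit cannot decide on it. Hoxa7, the neighbour of Hoxa9, went the other way, at 21.8, 15.9, 17 and 18.3 CPM in MCA-943 and between 2.26 and 4.34 CPM (median 3.08) in MCA-970 (log2 fold change 2.52 ± 0.30). The Hoxc cluster changed direction along its length. Hoxc4 (15.9 ± 1.24 against 1.97 ± 0.594 CPM, log2 fold change 3.01 ± 0.23), Hoxc5 (1.18 ± 0.21) and Hoxc8 (65.2 ± 4.47 against 14.9 ± 1.94 CPM, 2.13 ± 0.21) were called higher in MCA-943, while Hoxc10 was at 4.16 ± 0.1998 against 64.2 ± 3.65 CPM (-3.95 ± 0.49) and Hoxc11 had 1 count in MCA-943 against 3.38 ± 0.469 CPM. Hoxc6, the Hox gene with the highest level per kb, differed by 0.39, under the threshold. Of the Hoxd genes, 5 were tested, Hoxd3 was called higher (1.40 ± 0.46, adjusted p = 0.48 with the run in the model) and 0 lower. The Hox genes other than Hoxa7, Hoxa10, Hoxa11, Hoxb9, Hoxc4, Hoxc6 and Hoxc8 were chosen after their values were seen.

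**Figure D3:**
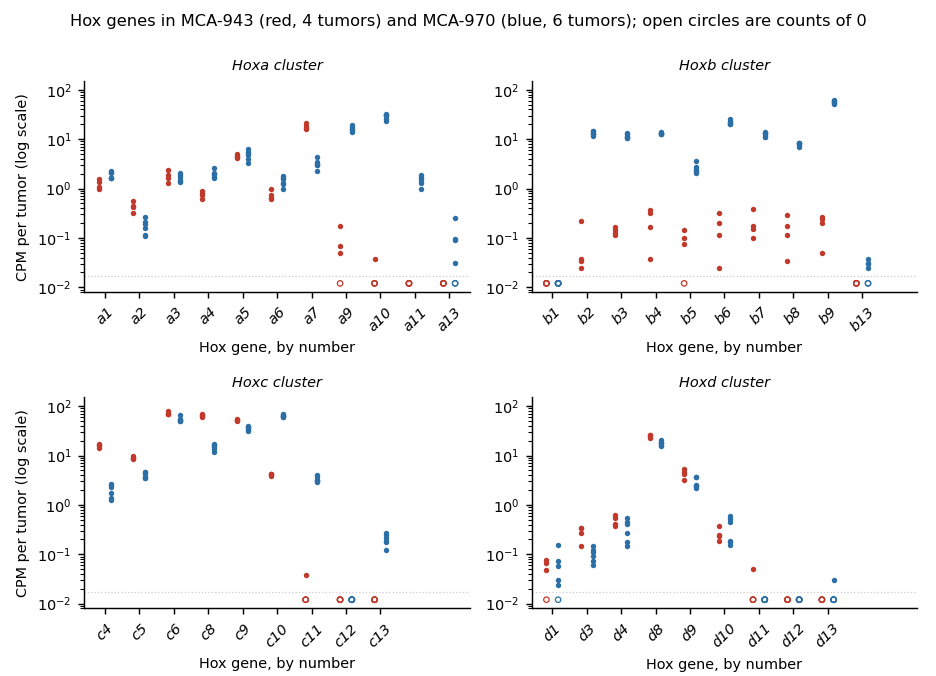
CPM of the Hox genes on a log axis, by cluster and gene number, for each MCA-943 tumor (red) and each MCA-970 tumor (blue); open circles stand for a count of 0. Hoxb2 to Hoxb9, Hoxa9, Hoxa10 and Hoxc10 lie lower in every MCA-943 tumor, and Hoxa7, Hoxc4 and Hoxc8 higher.

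Other transcription factors of limb, trunk and face followed: 9 of 61 were called higher and 23 lower (6 and 18 with the run in the model). Dlx1 (5.45 ± 0.535 against 0.263 ± 0.114 CPM, log2 fold change 4.37 ± 0.43) and Dlx2 (7.42 ± 0.854 against 0.988 ± 0.231 CPM, 2.91 ± 0.30), which pattern the jaws and forebrain, were higher in MCA-943, as was Zic4 (7.08 ± 0.737 against 1.37 ± 0.419 CPM, 2.36 ± 0.30). Besides Hand2, the lower genes included Lhx2 and Pax3, a factor of dermomyotome and neural crest, with 1 and 3 counts in all MCA-943 tumors and 1.37 ± 0.328 and 3.2 ± 0.994 CPM in MCA-970. Tbx15, a factor of limb and skin mesenchyme and the highest of the list per kb, was at 223 ± 11.1 against 254 ± 27.7 CPM (overlapping, adjusted p = 0.127).

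The lines also differed in genes of other lineages. Of 28 epithelial and mesothelial genes, 11 were called higher and 8 lower (10 and 4 with the run in the model). Beside Msln and Plet1, Jup, the plakoglobin of desmosomes, was at 227, 229, 211 and 183 CPM in MCA-943 and between 10.3 and 26.8 CPM (median 25.5) in MCA-970 (log2 fold change 3.27 ± 0.26). Epcam (0.214 ± 0.14 against 1.44 ± 0.387 CPM) and Krt18, a keratin of simple epithelia (3.03 ± 0.598 against 7.64 ± 1.6 CPM), were lower, so that the epithelial genes did not move together. Of 15 skeletal muscle genes, 8 were called higher and 2 lower (7 and 0 with the run in the model), among them the acetylcholine receptor subunit Chrna1 (49.5 ± 10.5 against 23.8 ± 5.21 CPM, 1.05 ± 0.25), the calcium channel Ryr1 (2.67 ± 0.441 against 0.321 ± 0.13 CPM, 3.03 ± 0.23) and skeletal actin, Acta1 (2.4 ± 0.763 against 0.779 ± 0.269 CPM, 1.62 ± 0.42). The markers of mature muscle summed to 7.62 to 9.89 CPM in MCA-943 and 4.96 to 7.1 CPM in MCA-970. Their part in these differences was not tested.

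Contractile genes of smooth muscle and myofibroblasts split, with 5 of 18 called higher and 6 lower (4 and 3 with the run in the model). Acta2, the smooth muscle alpha-actin of activated fibroblasts, was at 636, 654, 707 and 564 CPM in MCA-943 and between 100.5 and 299 CPM (median 241) in MCA-970 (log2 fold change 1.54 ± 0.40, adjusted p = 0.00173, and 0.0694 with the run in the model), while Cnn1, calponin, was at 0.983, 1.73, 1.78 and 1.54 CPM in MCA-943 and between 7.76 and 39.4 CPM (median 33) in MCA-970 (-4.21 ± 0.40). Itga8, the integrin subunit of smooth muscle and myofibroblasts, was at 0.397 ± 0.111 against 39.95 ± 7.82 CPM (-6.63 ± 0.34). Among cartilage and bone genes 2 of 24 were called higher and 10 lower (1 and 4 with the run in the model). Cilp, a cartilage matrix protein, was at 2851, 2882, 2382 and 3003 CPM in MCA-943 and between 163 and 464 CPM (median 215) in MCA-970 (3.36 ± 0.53). Acan, the aggrecan of cartilage, had no count in MCA-943 and lay between 0.0736 and 8.97 CPM (median 1.7) in MCA-970, where the tumors of the line varied among themselves. Spp1, osteopontin, was at 2400 ± 172 against 2735 ± 414 CPM (overlapping, adjusted p = 0.557). Of 14 neural crest and glial genes, 2 were called higher and 5 lower (1 and 4 with the run in the model). Of 15 regulators of epithelial-mesenchymal transition, 3 were called higher and 2 lower (2 and 1 with the run in the model). Among the mesenchymal genes S100a4 was at 123 ± 13.3 against 15.6 ± 8.63 CPM (2.98 ± 0.33) and Vim, vimentin, at 7750 ± 353 against 3514 ± 448 CPM (1.14 ± 0.11), and Cdh2, N-cadherin, was lower (33.2 ± 2.001 against 99.4 ± 15.3 CPM, -1.58 ± 0.16).

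Collagen genes were called in both directions. Of 36 collagen genes, 5 were called higher and 11 lower (5 and 8 with the run in the model). Col3a1, the highest per kb, was at 18830, 18690, 21190 and 18790 CPM in MCA-943 and between 7293 and 12110 CPM (median 10390) in MCA-970, a log2 fold change of 0.92 ± 0.18, under the threshold, and 1.18 with the run in the model, past it. Col28a1 was at 59.5 ± 17.1 against 1.54 ± 0.346 CPM (5.27 ± 0.45) and Col14a1, a collagen on the surface of fibrils, at 60.4 ± 15.6 against 12.5 ± 3.27 CPM (2.27 ± 0.35, adjusted p = 0.117 with the run in the model). The transmembrane collagens Col25a1 (0.117 ± 0.099 against 25.2 ± 7.84 CPM, -7.58 ± 0.43) and Col23a1 (6.65 ± 0.478 against 90.1 ± 13.6 CPM, -3.76 ± 0.29) were lower. The basement membrane collagens Col4a1 (116, 78.8, 115 and 206 CPM in MCA-943 and between 922 and 1638 CPM (median 1321) in MCA-970, -3.35 ± 0.58) and Col4a2 (106 ± 33.3 against 1176 ± 188 CPM, -3.47 ± 0.55) were lower as well, and Nid1, their linker nidogen, was at 1835 ± 222 against 1334 ± 119 CPM (0.46 ± 0.16, under the threshold). Endothelial cells also make basement membrane collagens, and their markers summed to 212 to 338 CPM in MCA-943 and 404 to 824 CPM in MCA-970. Their part in the collagen values was not tested.

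Among 58 proteoglycans and matricellular proteins, 12 were called higher and 18 lower (12 and 10 with the run in the model). Efemp1, fibulin-3, was at 672, 767, 865 and 734 CPM in MCA-943 and between 47.1 and 76.6 CPM (median 69.2) in MCA-970 (log2 fold change 3.54 ± 0.20), and the small leucine-rich proteoglycans Ogn (108 ± 24.1 against 19.6 ± 14.3 CPM, 2.46 ± 0.44) and Omd (10.6 ± 1.78 against 1.39 ± 0.623 CPM, 2.92 ± 0.39) were higher too. Their relative Fmod was at 0.504 ± 0.0663 CPM in MCA-943 and between 0.294 and 68.1 CPM (median 8.18) in MCA-970, overlapping. Of 57 matrix proteases and inhibitors, 12 were called higher and 10 lower (15 and 7 with the run in the model), with the aggrecanase Adamts5 (54.7 ± 8.28 against 8.18 ± 0.854 CPM, 2.74 ± 0.26) and the serine protease Htra3 (49.9 ± 5.14 against 5.83 ± 1.997 CPM, 3.09 ± 0.32) higher and the protease inhibitor Serpine2 (13.1, 12.3, 11 and 12.2 CPM in MCA-943 and between 269.7 and 345 CPM (median 301) in MCA-970, -4.65 ± 0.55) and stromelysin-2, Mmp10 (19.98 ± 3.31 against 308 ± 143 CPM, -3.95 ± 0.56), lower. Integrins followed with 2 of 20 called higher and 6 lower (2 and 4 with the run in the model), and laminins and other basement membrane genes with 1 of 21 called higher and 6 lower (3 and 5 with the run in the model). Itgb1, the shared beta subunit of most integrins, was at 2027 ± 139 against 2302 ± 90.8 CPM (-0.18 ± 0.06).

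**Figure D4:**
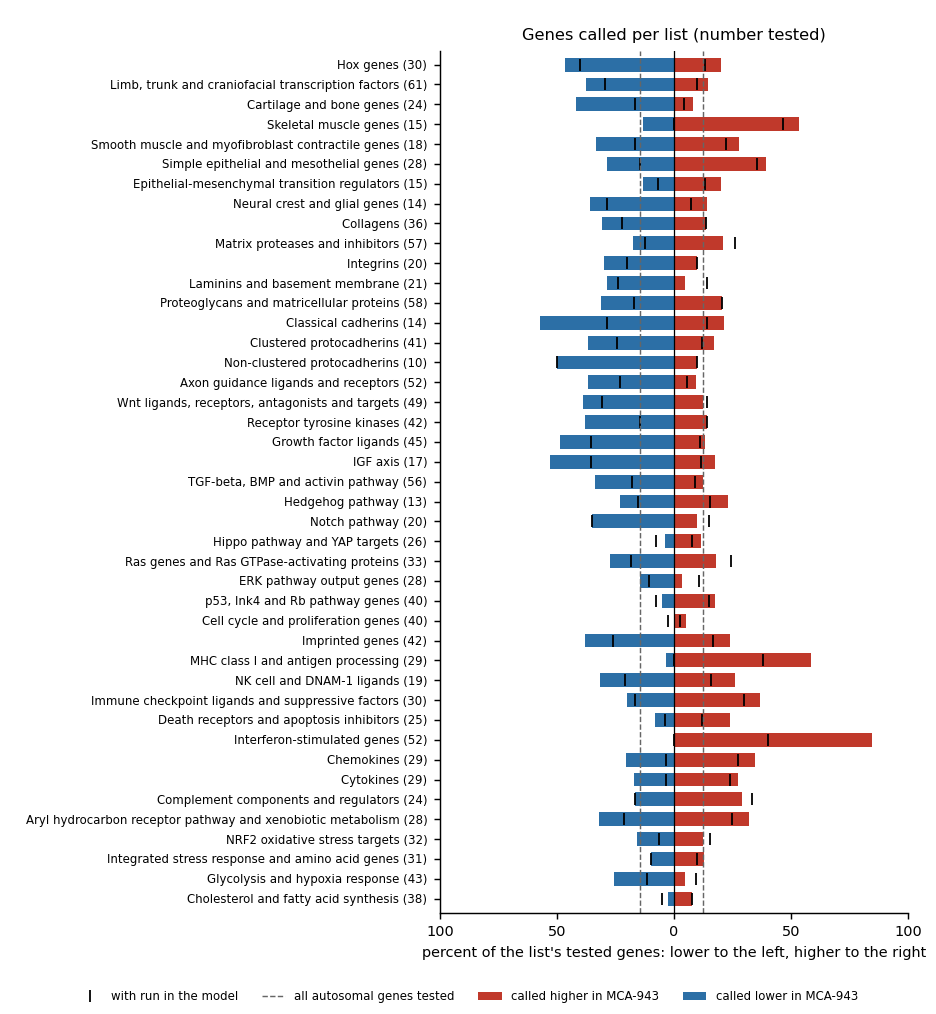
Percent of the tested genes of each list other than the cell type markers (number tested in brackets) called higher (red, to the right) and lower (blue, to the left) in MCA-943; black ticks give the same with the run in the model, and dashed lines the percent over all autosomal genes tested, 12.6% and 14.7%. The bar of the interferon-stimulated genes reaches furthest to the right, and among the ticks that of the skeletal muscle genes does.

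Adhesion genes were more often called lower than higher in MCA-943. Of 14 classical cadherins, 3 were called higher and 8 lower, with a median log2 fold change of -1.55 against 0.03 over all autosomal genes, and 4 were lower with the run in the model. P-cadherin, Cdh3, was at 13.4 ± 2.18 against 0.925 ± 0.419 CPM (3.85 ± 0.34) and E-cadherin, Cdh1, at 4.58 ± 1.51 against 0.828 ± 0.588 CPM (2.47 ± 0.57, adjusted p = 0.308 with the run in the model). Cdh19 was at 0.0279 ± 0.0211 against 4.61 ± 1.12 CPM (-7.15 ± 0.59), and the endothelial cadherin Cdh5 at 33.2 ± 10.4 against 236 ± 18.1 CPM (-2.83 ± 0.62, adjusted p = 0.0951 with the run in the model). Cdh11, the cadherin of mesenchyme and the highest of the list per kb, was at 579 ± 56.1 against 445 ± 84 CPM (overlapping, adjusted p = 0.432).

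Clustered protocadherins, adhesion proteins each read from its own promoter and joined to shared exons, differed by member. Of 41 tested, 7 were called higher and 15 lower (5 and 10 with the run in the model). Within the gamma cluster on chromosome 18, Pcdhga7 was at 11.5, 10.6, 12.6 and 13 CPM in MCA-943 and between 0.244 and 0.464 CPM (median 0.396) in MCA-970 (adjusted p = 2.32e-13), Pcdhgb1 at 44.3 ± 6.55 against 2.54 ± 0.53 CPM (4.12 ± 0.24) and Pcdhga6 at 11.8 ± 0.557 against 1.14 ± 0.39 CPM (3.36 ± 0.27). In the other direction, Pcdhga10 was at 0.237, 0.345, 0.302 and 0.441 CPM in MCA-943 and between 21.3 and 28.3 CPM (median 25) in MCA-970 (-6.19 ± 0.33), Pcdhga11 at 0.232 ± 0.108 against 20.2 ± 3.005 CPM (-6.36 ± 0.36) and Pcdhgb2, one of the genes that the study names, at 1.21 ± 0.167 against 20.6 ± 2.55 CPM (-4.09 ± 0.24). Pcdhgb7 was at 0.296 ± 0.0393 against 4.41 ± 0.836 CPM (-3.90 ± 0.22) and Pcdhga5 at 0.499 ± 0.112 against 1.06 ± 0.299 CPM (-1.09 ± 0.43, adjusted p = 0.029, and 0.161 with the run in the model). The constitutive member Pcdhgc3, the highest per kb, was at 274 ± 17.1 against 142 ± 11.3 CPM (0.94 ± 0.08, under the threshold). Reads from the shared exons cannot be assigned to 1 member, so that these values are uncertain. Of the non-clustered protocadherins, 5 of 10 were called lower and 1 higher, with the same counts with the run in the model: Pcdh10, at 0.0449 ± 0.0184 against 15 ± 3.74 CPM (-8.31 ± 0.81), lies on chromosome 3, and Pcdh17 was at 0.237, 0.296, 0.378 and 2.2 CPM in MCA-943 and between 26.9 and 34.6 CPM (median 30.1) in MCA-970 (-5.21 ± 0.54), with a-R above the other MCA-943 tumors. Of 52 axon guidance genes, 5 were called higher and 19 lower (3 and 12 with the run in the model). Ntn4, a netrin of basement membranes, was at 42.6 ± 1.34 against 5.12 ± 1.19 CPM (3.05 ± 0.22) and the semaphorins Sema4a (-3.48 ± 0.64) and Sema6d (-2.52 ± 0.17) were lower.

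Growth factor ligands and the IGF, Wnt, TGF-beta and Notch lists had more genes called lower than higher, also with the run in the model, whereas the balance of the receptor tyrosine kinase, Ras and ERK lists depended on the run. Among 45 growth factor ligands, 6 were called higher and 22 lower, with a median log2 fold change of -1.13 (5 and 16 with the run in the model). Midkine, Mdk, was at 0.542, 1.88, 0.113 and 1.1 CPM in MCA-943 and between 92.9 and 133 CPM (median 99.2) in MCA-970 (log2 fold change -6.75 ± 0.40), and epiregulin, Ereg, a ligand of the EGF receptor, at 15.2, 16.7, 28.6 and 14.7 CPM in MCA-943 and between 173 and 395 CPM (median 342) in MCA-970 (-4.09 ± 0.64). Fgf10, a growth factor of limb and lung mesenchyme, was at 0.458 ± 0.0955 against 6.33 ± 1.48 CPM (-3.76 ± 0.40), and Angpt1, the ligand of Tie2, was higher (54.4 ± 6.38 against 12.2 ± 1.47 CPM, 2.16 ± 0.21). In the IGF axis 3 of 17 genes were called higher and 9 lower (2 and 6 with the run in the model): Igf1 was at 30.9, 45.7, 70.9 and 39.4 CPM in MCA-943 and between 5.63 and 13.6 CPM (median 10.9) in MCA-970 (2.13 ± 0.35), while Igf2 was at 0.949, 2.15, 2.19 and 2.11 CPM in MCA-943 and between 34.7 and 110.3 CPM (median 60.2) in MCA-970 (-5.10 ± 0.56). Their receptor Igf1r, on chromosome 7, was at 159 ± 12.1 against 63.7 ± 8.38 CPM (1.32 ± 0.13, and 0.84 with the run in the model), and the binding protein Igfbp6 at 224 ± 23.2 against 38.7 ± 15.2 CPM (2.53 ± 0.23).

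Of 49 Wnt pathway genes, 6 were called higher and 19 lower (7 and 15 with the run in the model). The Wnt binding protein Sfrp2, on chromosome 3, was at 2.13, 3.33, 3.4 and 4.19 CPM in MCA-943 and between 353 and 941 CPM (median 579) in MCA-970 (log2 fold change -7.54 ± 0.73, adjusted p = 7.9e-10). The ligands Wnt10b (6.22 ± 0.873 against 0.997 ± 0.471 CPM, 2.66 ± 0.33) and Wnt2 (1.61 ± 0.566 against 0.28 ± 0.175 CPM, 2.53 ± 0.51) were higher. The R-spondins, which strengthen Wnt signals, went in opposite directions: Rspo2 was at 7.73 ± 2.72 against 1.24 ± 0.439 CPM (2.65 ± 0.26) and Rspo3 at 0.043 ± 0.0579 against 3.07 ± 0.647 CPM (-5.86 ± 0.66). The receptor Fzd3 was at 0.131 ± 0.0961 against 7.39 ± 1.69 CPM (-5.68 ± 0.33).

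In the TGF-beta, BMP and activin pathway, 7 of 56 genes were called higher and 19 lower (5 and 10 with the run in the model), and 6 of the list were called lower in the third run within MCA-948. The ligands Bmp4 (0.147 ± 0.0841 against 5.94 ± 1.36 CPM, -5.37 ± 0.47) and Gdf10 (0.0458 ± 0.0223 against 4.2 ± 2.62 CPM, -6.47 ± 0.97) and the antagonist Nog (0.0397 ± 0.0244 against 1.53 ± 0.49 CPM, -5.25 ± 0.56) were lower, and the ligand Bmp5 (1.6 ± 0.238 against 0.0495 ± 0.0541 CPM, 4.91 ± 0.55), the antagonist Chrd (9.91 ± 0.927 against 1.71 ± 0.42 CPM, 2.54 ± 0.35) and the receptor Acvrl1 (105, 105, 118 and 96.8 CPM in MCA-943 and between 3.79 and 13.1 CPM (median 11.2) in MCA-970, 3.46 ± 0.47) higher. Of the Hedgehog pathway 3 of 13 genes were called higher and 3 lower (2 and 2 with the run in the model), with the ligand Dhh at 1.76 ± 0.212 against 0.254 ± 0.17 CPM (2.77 ± 0.38), the decoy Hhip at 0.915 ± 0.304 against 18.1 ± 2.9 CPM (-4.32 ± 0.42) and the effector Gli2 at 6.61 ± 1.17 against 33.5 ± 4.12 CPM (-2.35 ± 0.25). Of the Notch pathway 2 of 20 were called higher and 7 lower (3 and 7 with the run in the model). The ligand Dll4, which endothelial cells express, was at 1.25, 1.28, 2.08 and 4.82 CPM in MCA-943 and between 3.12 and 43.8 CPM (median 29.3) in MCA-970, overlapping, and lost its call with the run in the model (adjusted p = 0.245), and so did the ligand Jag1 (89.8 ± 9.41 against 35 ± 9.12 CPM, 1.36 ± 0.30, adjusted p = 0.948 with the run in the model).

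Of 42 receptor tyrosine kinases, 6 were called higher and 16 lower (6 and 6 with the run in the model). The ephrin receptors Epha4 (0.189 ± 0.0965 against 9.52 ± 3.65 CPM, -5.57 ± 0.72) and Epha7 were lower. Axl, the highest of the list per kb, was at 1479, 1491, 1501 and 1453 CPM in MCA-943 and between 580.2 and 879 CPM (median 658) in MCA-970 (1.11 ± 0.09), on chromosome 7, and Erbb2 at 27.2 ± 2.16 against 9.85 ± 1.15 CPM (1.47 ± 0.22, adjusted p = 0.111 with the run in the model). Ephb2 was called higher (59.1 ± 2.78 against 22.9 ± 2.41 CPM, 1.37 ± 0.31) and had a log2 fold change of -0.19 with the run in the model (adjusted p = 0.743). Among 33 genes of Ras proteins and their regulators, 6 were called higher and 9 lower (8 and 6 with the run in the model). Rras2, a Ras-related GTPase encoded on chromosome 7, was at 88.2, 94.4, 104 and 92 CPM in MCA-943 and between 18.2 and 22.1 CPM (median 19.8) in MCA-970 (2.26 ± 0.13), and Rasa4, which switches Ras off, at 25.2, 24.9, 22.1 and 20.1 CPM in MCA-943 and between 3.99 and 7.79 CPM (median 5.57) in MCA-970 (2.08 ± 0.24, adjusted p = 1.61e-08). Of 28 genes that report ERK activity, 1 was called higher and 4 lower (3 and 3 with the run in the model), and Egr1 was at 2830 ± 149 against 3572 ± 533 CPM (overlapping, adjusted p = 0.0951). Of 26 Hippo pathway genes and YAP targets, 3 were called higher, among them Ccn2 (259.7 ± 67.9 against 99.5 ± 33.3 CPM, 1.38 ± 0.38), and Wwtr1, the gene of TAZ on chromosome 3, was called lower (319.6 ± 18.8 against 664 ± 52.7 CPM, -1.05 ± 0.09), and with the run in the model 2 were called higher and 2 lower. The share called was 17.9% of the ERK list and 15.4% of the Hippo list, below the 27.3% of all autosomal genes tested.

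Imprinted genes, expressed from 1 parental copy, split as well: 10 of 42 were called higher and 16 lower (7 and 11 with the run in the model). Peg12 was at 7.76, 8.24, 8.31 and 8.38 CPM in MCA-943 and between 0.0306 and 0.419 CPM (median 0.226) in MCA-970 (log2 fold change 5.13 ± 0.38), and Slc22a18, which is imprinted with the opposite parental copy, at 1.03 ± 0.0981 CPM in MCA-943 with 3 counts in all MCA-970 tumors. Besides Igf2, Mest was at 5.69, 7.94, 11.6 and 20.3 CPM in MCA-943 and between 69.4 and 388 CPM (median 171) in MCA-970 (-4.14 ± 0.82). The maternally expressed RNAs Meg3, Rian and Mirg of chromosome 12, chosen after their values were seen, had log2 fold changes of -2.72, -2.57 and -3.04. Decorin, Dcn, a proteoglycan imprinted in placenta and the highest of the list per kb, was at 2414 ± 208 against 987 ± 203 CPM (1.29 ± 0.22).

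Interferon-stimulated genes had the highest share of genes called higher of the 59 lists without the run in the model, and with it a share below those of the mesenchymal markers (9 of 18) and the skeletal muscle genes (7 of 15). All 52 tested had a positive log2 fold change, 44 were called higher in MCA-943 and 0 lower, and the median was 2.20. Of the 52, 37 did not overlap between the lines, where 55.5% of all autosomal genes tested did not. With the run in the model, 21 were called higher, with a median of 1.77. Between the runs within MCA-948 their median was 0.36. Oas3, which makes the signal for RNA decay in infected cells, was at 38.4, 37.2, 17.1 and 60.2 CPM in MCA-943 and between 0.568 and 1.1 CPM (median 0.868) in MCA-970 (log2 fold change 5.47 ± 0.45, adjusted p = 3.39e-11, and 7.99e-06 with the run in the model). Oas2 was at 46.9, 57.4, 22.9 and 71.5 CPM in MCA-943 and between 0.397 and 1.22 CPM (median 0.81) in MCA-970 (5.91 ± 0.54, adjusted p = 0.278 with the run in the model), and Tgtp1, a GTPase that attacks parasite vacuoles, at 20.2, 25.7, 11.1 and 58.3 CPM in MCA-943 and between 0.209 and 3.5 CPM (median 0.699) in MCA-970 (4.80 ± 0.66, adjusted p = 0.309 with the run in the model). Tgtp1 and Tgtp2 are nearly the same in sequence, as are several Oas1 genes, so that their single values are uncertain. Ifitm3, which blocks virus entry and has the highest level per kb, was at 803, 727, 565 and 916 CPM in MCA-943 and between 252 and 288 CPM (median 274) in MCA-970 (1.48 ± 0.15).

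The MCA-943 tumors had an order of their own in these genes. Of the 52 genes, 47 were lowest in a-1G among the 4 MCA-943 tumors and 49 were highest in a-R. The summed level of the list was 5313, 5925, 3676 and 9151 CPM in W-2G, a-1D, a-1G and a-R, and in MCA-970 between 1541 and 2583 CPM, the highest value being that of W-2D. T cell markers summed to 38.3, 32.2, 27 and 25.4 CPM in the same MCA-943 tumors and between 3.29 and 8.62 CPM in MCA-970. Most of the MCA-943 sum was Trbc2, a T cell receptor constant region, at 24.5, 20.9, 22.2 and 19.4 CPM, while Cd3e was at 0.441, 0.864, 0.189 and 0.171 CPM and Cd8a at 0.847, 1.6, 0.34 and 0.539 CPM. The lines overlapped in Cd3e, which was not tested, and in Cd8a, and the calls of Trbc2 and Cd8a were lost with the run in the model (adjusted p = 0.168 and 0.668). The a-R tumor, highest in the interferon-stimulated genes, had the lowest sum. The part of T cells in the interferon-stimulated genes was not tested.

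**Figure D5:**
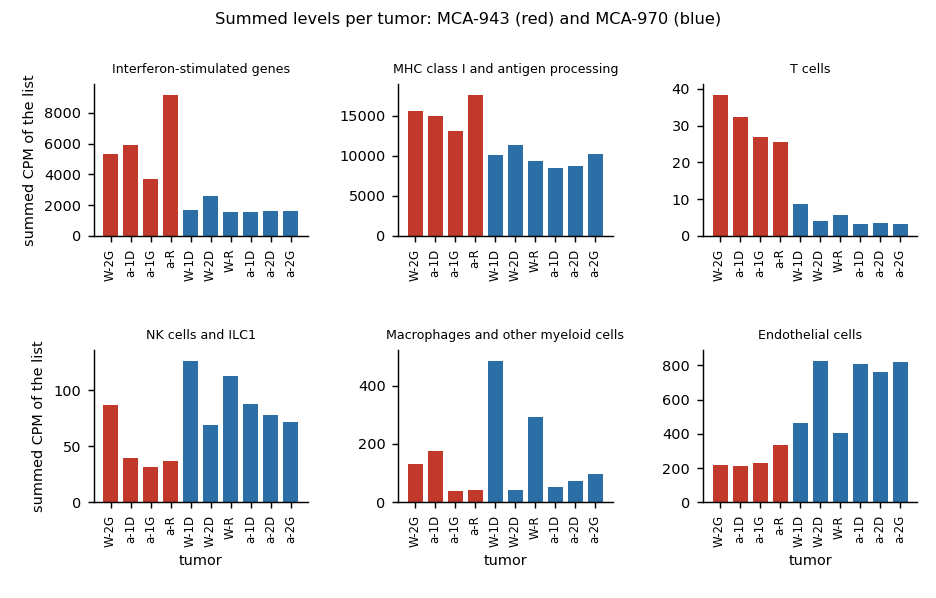
Summed CPM (y axis) of the genes of 6 lists in each tumor (x axis), with MCA-943 in red and MCA-970 in blue. Interferon-stimulated genes, MHC class I genes and T cell markers lie higher in every MCA-943 tumor than in any MCA-970 tumor, and endothelial markers lower; NK cell and myeloid markers overlap.

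The promoters of the interferon-stimulated genes were read for 2 copies of GAAA with any 2 bases between them, on both strands, the core of the interferon-stimulated response element, a motif added after the data were seen. In windows from 250 bases before to 50 after the start (RefSeq, GRCm38.p6), it was found in 24 of 37 promoters of the list (64.9%), in 352 of 11253 promoters of all autosomal genes tested (3.13%), in 8.02% of those called higher and 1.93% of those called lower. A match is a description and not a site bound in these cells. The promoters to print were chosen after the data were seen, and part of the genome was left out of the choice. The 5 promoters printed belong to the genes called higher by most among the rest of the list with a match before the start. They run from 40 bases before the match to the base before the start, with the match in capitals:
Oas3, chr5:120777660-120777774, minus strand: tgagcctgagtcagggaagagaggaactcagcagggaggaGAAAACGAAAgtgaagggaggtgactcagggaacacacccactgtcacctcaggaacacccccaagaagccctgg
Tgtp1, chr11:48992247-48992363, minus strand: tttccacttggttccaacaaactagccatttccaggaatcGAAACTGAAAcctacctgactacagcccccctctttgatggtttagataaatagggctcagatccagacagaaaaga
Tgtp2, chr11:49064213-49064322, minus strand: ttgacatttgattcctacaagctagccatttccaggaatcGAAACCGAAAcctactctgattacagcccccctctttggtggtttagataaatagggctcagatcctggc
Oas1a, chr5:120907526-120907585, minus strand: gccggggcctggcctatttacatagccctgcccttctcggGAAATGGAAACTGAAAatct
Igtp, chr11:58199482-58199555, plus strand: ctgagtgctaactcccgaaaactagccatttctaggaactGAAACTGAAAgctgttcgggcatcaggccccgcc
In Oas1a 2 overlapping matches form 1 run, and Tgtp1, Tgtp2 and Igtp encode GTPases of the same family. The genes had log2 fold changes of 5.47, 4.80, 4.04, 3.47 and 3.12 in this order. With the run in the model Oas3 was called, and Tgtp1, Tgtp2, Oas1a and Igtp had an adjusted p of 0.309, 0.0795, 0.198 and 0.0551. Of the other motifs, AP-1 (TGAGTCA) was in 5.92% of promoters called higher, 4.77% of those called lower and 3.83% of all, the E-box (CACGTG) in 7.55%, 9.35% and 9.84%, the TEAD motif (GGAATG) in 14.6%, 12.7% and 12%, TATAAA in 10.7%, 9.78% and 7.62%, and the antioxidant response element (TGACNNNGC, which can overlap an AP-1 match) in 12.3%, 13% and 14.7%. All were read on both strands.

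MHC class I genes were also higher in MCA-943. Of 29 genes of MHC class I and antigen processing, 17 were called higher and 1 lower (11 and 0 with the run in the model), with a median log2 fold change of 1.38. H2-T23, the nonclassical molecule Qa-1 that engages the NKG2A receptor of NK cells, was at 169, 148, 97.2 and 208 CPM in MCA-943 and between 15.5 and 35.7 CPM (median 19.7) in MCA-970 (log2 fold change 2.87 ± 0.22, adjusted p = 9.98e-12), and H2-T24 at 8.12 ± 3.53 against 0.653 ± 0.205 CPM (3.64 ± 0.32). Psmb9, a subunit of the immunoproteasome, was at 48 ± 15.7 against 8.75 ± 4.55 CPM (2.46 ± 0.34, adjusted p = 0.226 with the run in the model). B2m, the light chain and the highest of the list per kb, was at 3526, 3398, 2955 and 3847 CPM in MCA-943 and between 1593 and 2518 CPM (median 2047) in MCA-970 (0.78 ± 0.14, under the threshold). Cd1d1, the molecule that presents lipids to NKT cells, on chromosome 3, was the gene called lower (11 ± 0.835 against 31.6 ± 2.68 CPM, -1.52 ± 0.15, and -0.90 with the run in the model). H2 genes resemble each other, so that single values are uncertain.

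Ligands of NK cell receptors differed in both directions, with 5 of 19 called higher and 6 lower (3 and 4 with the run in the model). The NKG2D ligands Raet1d (0, 0.123, 0.0378 and 0.147 CPM in MCA-943 and between 1.44 and 7.39 CPM (median 4.85) in MCA-970, -5.72 ± 0.63) and Raet1e (0.203, 0.271, 0.68 and 0.808 CPM in MCA-943 and between 1.86 and 5.31 CPM (median 3.53) in MCA-970, -2.88 ± 0.46) were lower in MCA-943, with overlap in neither. Clec2d, the ligand of the inhibitory receptor NKR-P1B, was at 79, 71.1, 63.1 and 83.3 CPM in MCA-943 and between 19.8 and 26.3 CPM (median 24.2) in MCA-970 (1.67 ± 0.13). Tnfsf9, the ligand of 4-1BB, was at 13.1 ± 3.08 against 1.44 ± 0.361 CPM (3.17 ± 0.25), and Icam1, the ligand of the integrin LFA-1, at 46.7 ± 11.9 against 16.2 ± 5.24 CPM (1.53 ± 0.29). The NK cell and ILC1 markers of the samples summed to 32 to 86.5 CPM in MCA-943 and 68.8 to 126 CPM in MCA-970, of which Itga1, an integrin subunit that is not restricted to these cells, gave 21.4, 21.9, 24.3 and 26.9 CPM in MCA-943 and between 61 and 86.7 CPM (median 72.7) in MCA-970. Ncr1, the gene of NKp46, was at 3.29, 0.0987, 0.0378 and 0.318 CPM in the MCA-943 tumors W-2G, a-1D, a-1G and a-R, and at 1.94, 0.221 and 2.57 CPM in the MCA-970 tumors W-1D, W-2D and W-R, with no count in a-1D, a-2D and a-2G, so the lines overlapped. It was thus above 1 CPM in 3 of the 4 tumors with the letter W and in none of the 6 with the letter a.

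Of 30 immune checkpoint ligands and suppressive factors, 11 were called higher and 6 lower (9 and 5 with the run in the model). Cd80, a ligand of CD28 and CTLA-4, was at 27.7, 22.1, 22.9 and 22.3 CPM in MCA-943 and between 0.626 and 1.93 CPM (median 1.16) in MCA-970 (log2 fold change 4.30 ± 0.34). Arg1, arginase, was at 30.3, 31.7, 32.1 and 26 CPM in MCA-943 and between 1.07 and 6.2 CPM (median 2.17) in MCA-970 (3.43 ± 0.36), whereas its paralog Arg2 was at 0.0331 ± 0.0308 against 2.27 ± 0.841 CPM (-5.85 ± 0.71). Nt5e, the CD73 enzyme that makes adenosine, was lower, at 10.5, 11.1, 14.3 and 10.9 CPM in MCA-943 and between 139.8 and 230.2 CPM (median 207) in MCA-970 (-4.10 ± 0.35), and so was Nos2 (1.56 ± 0.716 against 10.9 ± 4.87 CPM, -2.81 ± 0.58). Tnfsf11, the RANK ligand, was at 19.6, 13.5, 13.4 and 14.7 CPM in MCA-943 and between 0.519 and 1.99 CPM (median 1.26) in MCA-970 (3.61 ± 0.59, adjusted p = 5.44e-06), and its adjusted p was 0.0706 with the run in the model. Vsir, the checkpoint VISTA, was at 37.5, 32.7, 35.3 and 29.2 CPM in MCA-943 and between 5.75 and 12.2 CPM (median 8.44) in MCA-970 (1.99 ± 0.23). Of the other genes that the study names, Ifitm1 was at 5.93 ± 0.875 against 0.916 ± 0.414 CPM (2.68 ± 0.33), the receptor kinase Musk at 2.29 ± 0.785 against 6.24 ± 1.85 CPM (-1.45 ± 0.36, adjusted p = 0.408 with the run in the model) and Ntm, an adhesion protein of neurons, had 1 count in MCA-943 and a mean of 0.263 ± 0.135 CPM in MCA-970. The study chose its genes on these samples, so that their directions here are not independent evidence.

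Chemokines were more often called higher than lower: 10 of 29 genes were called higher and 6 lower (8 and 1 with the run in the model). Ccl2, which recruits monocytes, was at 534, 627, 641 and 930.3 CPM in MCA-943 and between 161 and 263 CPM (median 219.8) in MCA-970 (1.64 ± 0.31), Ccl7 at 158, 195, 215 and 271 CPM in MCA-943 and between 11.5 and 29.6 CPM (median 18.5) in MCA-970 (3.45 ± 0.40), and the interferon-induced T cell attractant Cxcl9 at 220.5, 288, 118 and 737 CPM in MCA-943 and between 3.54 and 39.9 CPM (median 11.2) in MCA-970 (4.53 ± 0.68, adjusted p = 0.219 with the run in the model). Cxcl9 was, like the interferon-stimulated genes, lowest in a-1G and highest in a-R. Of 29 cytokine genes, 8 were called higher and 5 lower (7 and 1 with the run in the model). Il33, an alarmin, was at 144, 134, 196 and 122 CPM in MCA-943 and between 15.2 and 34 CPM (median 24.9) in MCA-970 (2.54 ± 0.38), Il15, which sustains NK cells, at 39.5, 40.8, 34.9 and 49.96 CPM in MCA-943 and between 5.59 and 8.87 CPM (median 6.15) in MCA-970 (2.63 ± 0.24), and the B cell survival factor Tnfsf13b at 16.8 ± 3.12 against 1.88 ± 0.775 CPM (3.16 ± 0.30). Csf3 (0.686 ± 0.728 against 8.14 ± 5.06 CPM, -3.64 ± 0.83) was lower, as was Il11 (7.22 ± 1.96 against 33.5 ± 14.5 CPM, -2.22 ± 0.58, adjusted p = 0.157 with the run in the model). In the complement system 7 of 24 genes were called higher and 4 lower (8 and 4 with the run in the model), with the component C3 at 218, 154, 165 and 258 CPM in MCA-943 and between 11.7 and 23.4 CPM (median 21) in MCA-970 (3.42 ± 0.37). Among death receptors and inhibitors of apoptosis 6 of 25 were called higher and 2 lower (3 and 1 with the run in the model). Serpinb9, the inhibitor of granzyme B, was at 49.1 ± 8.47 against 16.3 ± 2.53 CPM (1.59 ± 0.24, adjusted p = 0.237 with the run in the model), and Mcl1, on chromosome 3, at 173 ± 5.84 against 467 ± 80.8 CPM (-1.43 ± 0.15).

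Lists of metabolic genes held calls in both directions, some of them at no more than the share of all genes. Over all autosomal genes tested, 27.3% were called. The share was 28.1% of the NRF2 targets, 22.6% of the integrated stress response and 10.5% of cholesterol and fatty acid synthesis. Of 43 genes of glycolysis and the hypoxia response, 2 were called higher and 11 lower, with a median log2 fold change of -0.43, and with the run in the model 4 and 5, with a median of 0.19. Vegfa, the main angiogenic factor, was at 131, 126, 145 and 102 CPM in MCA-943 and between 422 and 589 CPM (median 489) in MCA-970 (-1.99 ± 0.30), and Pfkfb3, which drives glycolysis, at 17.8 ± 2.23 against 120 ± 16.1 CPM (-2.75 ± 0.34), while pyruvate kinase, Pkm, was at 1910 ± 154 against 1925 ± 155 CPM (overlapping, adjusted p = 0.946). Of 28 genes of the aryl hydrocarbon receptor, which binds MCA, and of xenobiotic metabolism, 9 were called higher and 9 lower (7 and 6 with the run in the model). Its target Cyp1b1 was at 11.1 ± 3.997 against 2.44 ± 1.04 CPM (2.18 ± 0.48, adjusted p = 0.163 with the run in the model), the glutathione transferase Gstm2 at 76 ± 6.11 against 6.54 ± 1.37 CPM (3.54 ± 0.26), itself on chromosome 3, and Cyp26b1, which degrades retinoic acid, at 0.946 ± 0.242 against 39.99 ± 19 CPM (-5.38 ± 0.53). Cyp1a1 and Cyp1a2, also in this list, had no count in any tumor of either line. Of 32 NRF2 targets 4 were called higher and 5 lower (5 and 2 with the run in the model), and of 31 genes of the integrated stress response 4 and 3 (3 and 3 with the run in the model). The cystine transporter Slc7a11, in both lists and on chromosome 3, was at 7.51 ± 1.9 against 22.9 ± 6.09 CPM (-1.60 ± 0.42). Of 38 genes of cholesterol and fatty acid synthesis 3 were called higher and 1 lower (3 and 2 with the run in the model).

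Markers of other cells were present in both lines. Of 16 endothelial markers tested 13 were called lower in MCA-943, with a median of -2.15. With the run in the model edgeR called 0, where 1 had an unadjusted p under 0.05 and the median was -1.20. Their median was -0.96 between the runs within MCA-948, and Cldn5, which overlapped, had a log2 fold change of -1.33 in the comparison and 0.29 with the run in the model. Pericyte markers summed to 184 to 246 CPM in MCA-943 and 132 to 342 CPM in MCA-970, with 1 of 8 called higher and 6 lower (0 and 1 with the run in the model). Of 8 T cell markers 3 were called higher, and of 10 leukocyte markers 2, and with the run in the model edgeR called 0 of either list, with 1 of each at an unadjusted p under 0.05. The leukocyte markers summed to 334 to 470.1 CPM in MCA-943 and 224 to 335 CPM in MCA-970, so that RNA of the listed genes was present in both lines after the depletion. The highest of them per kb was Arhgdib, and how much of the sum came from leukocytes was not tested. Ptprc itself, the gene of CD45, was at 25.1, 18.7, 3.14 and 2.94 CPM in MCA-943 and between 0.508 and 23 CPM (median 1.58) in MCA-970, overlapping. Myeloid markers summed to 39.4 to 175 CPM in MCA-943 and 43.7 to 483 CPM in MCA-970, B cell markers to 1.66 to 12.8 CPM in MCA-943 and 0.897 to 4.35 CPM in MCA-970, adipocyte markers to 7.96 to 17.9 CPM in MCA-943 and 14.2 to 43.1 CPM in MCA-970, Schwann cell markers to 98.7 to 117 CPM in MCA-943 and 108 to 174 CPM in MCA-970, keratinocyte markers to 3.69 to 4.02 CPM in MCA-943 and 2.43 to 3.89 CPM in MCA-970 and red blood cell markers to 104 to 941 CPM in MCA-943 and 66.6 to 2378 CPM in MCA-970. Krt1, Pvalb and Retn had no count in any of the 10 tumors. Heat shock genes and other genes that rise when tissue is dissociated, Fos among them, summed to 23590 to 26480 CPM in MCA-943 and 17350 to 20980 CPM in MCA-970, with 5 of 20 called higher and 1 lower (7 and 0 with the run in the model), and mitochondrially encoded genes to 4715 to 7480 CPM in MCA-943 and 3904 to 4969 CPM in MCA-970. The part of these cells and of the handling in the differences above was not tested.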

How the data were processed

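RNA of CD45-depleted MCA tumors was sequenced with unique molecular identifiers (UMIs). Per the labels and the submitters' processing notes, the authors aligned reads with STAR 2.5.3a to GRCm38, and the column names show that duplicates were removed by UMI. The deposited values are raw counts per gene from featureCounts (1.5.2 in the notes, another version in the study's methods), with the strand setting not given in the sources used here. PCR and mapping choices made before deposit cannot be undone.

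Counts of all 30 tumors were fitted with edgeR 4.0.16 (R 4.3.3, limma 3.58.1): filterByExpr by line, TMM normalization, a robust quasi-likelihood fit with the line as the factor, and the contrast MCA-943 minus MCA-970, with p-values adjusted over the 16862 genes past the filter by the Benjamini-Hochberg method. The biological coefficient of variation was 0.221. The fit was checked on simulated data. Gene names and positions come from the annotation of GRCm38, and promoters from RefSeq. Groups were taken from the sample titles, and library runs from the library numbers in the column names.

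Named genes were the 12 protein-coding genes with the largest change in each direction that had a mean of at least 5 CPM in the higher line, no overlap, and the same call with the run in the model; in each of 59 lists the 3 called members with the largest change in each direction at 1 CPM or more and the member with the highest CPM per kb; genes that the study names; and cell type markers. Some genes that this rule names are not reported here. Members and lists were chosen with earlier results of these data known. X-linked members were left out of the lists. Alternatives were DESeq2 1.42.0, limma-voom, other normalization, filters, thresholds, covariates and samples. Each line is 1 culture, so that p-values measure only the spread between tumors of a line.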

Additional observations from a re-analysis of the deposited data

Results flagged for a closer look

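In 106 groups of 4 or 6 tumors, 1 tumor stood apart from the others of its line by Dixon's test in 12. The groups came from some of the named genes, the summed lists of markers, dissociation and mitochondrial genes, and the medians of chromosomes 3, 6, 7 and 10. No chromosome median was among the 12. Chance gives about 1 in 20, but 4 of the 12 are genes with 1 count in the line, where the test's ratio cannot be other than 1. In MCA-943, Msln was at 66.6 CPM in a-1G, and Pcdh17 at 2.2 CPM in a-R. The endothelial markers summed to 338 CPM in a-R, the NK cell and ILC1 markers to 86.5 CPM in W-2G and the markers of mature skeletal muscle to 9.89 CPM in a-1D, each the highest of the 4 tumors. For Epha7 (0.0247 CPM in a-1D), Hoxa10 (0.0378 CPM in a-1G), Kcns3 (0.0339 CPM in W-2G) and Ntm (0.0245 CPM in a-R), the tumor named held the 1 count of the gene in the line. In MCA-970, Csmd1 was at 0.331 CPM in W-2D, Dynap at 0.0932 CPM in a-2D and Ifitm1 at 1.71 CPM in W-1D.

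Outside the autosomes, Xist, the RNA that silences an X chromosome, was at a mean of 551 CPM in MCA-943, and the 4 Y-linked genes summed to a mean of 4.05 CPM there, above 0, against 116 CPM in MCA-970.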

How the results depend on the processing

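No paired analysis was made, because nothing in the labels pairs a tumor of MCA-943 with one of MCA-970. The titles of the lines share 1 code (a-1D), whose meaning the labels do not give. The counts of 2040 higher and 2382 lower genes moved by over 1.5 times with glmTreat (1131 and 1498), with no fold threshold (5061 and 4804) and with a log2 threshold of 2 (686 and 1225), and the lower count with a mean of at least 1 CPM (1483), settings that change the genes tested or the threshold. DESeq2, limma-voom, size factors, no filter, an adjusted p under 0.01, only the 10 tumors, only the letter a, and run, index set, letter or each autosome's median taken into account kept both counts within 1.5 times.

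The median of chromosome 3 was -0.87 with no filter, -0.88 with only the 10 tumors, -0.87 with the run and -0.76 with the index set in the model. That of chromosome 7 was 0.64 with limma-voom, 0.58 with size factors, 0.57 with no filter and 0.64 with only the letter a. That of chromosome 10 was 0.45 with no filter, 0.54 with the run and 0.55 with the index set, and that of chromosome 6 was -0.21 with only the letter a. The cause was not tested. Leaving out each tumor in turn gave 1966 to 2074 higher and 2288 to 2467 lower genes, and medians of -0.87 to -0.80, -0.29 to -0.25, 0.59 to 0.63 and 0.46 to 0.52 on chromosomes 3, 6, 7 and 10. Windows of 100 genes kept the sign in all 9, 13 and 8 windows of chromosomes 3, 7 and 10.

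Of 333 named genes, 84 lost a call in the same direction and 7 gained one with the run in the model, 43 lost and 5 gained one with the index set, and 63 lost one with glmTreat. A further 3 lost theirs and turned with the run, Cd8a (-0.95), Cldn5 (0.29) and Ephb2 (-0.19), and Cd8a (-0.70) did so with the index set. The median moved by more than the spread between tumors in 37 of the 59 lists with the run and in 28 with the index set. With the run, the medians of the matrix protease, laminin, Hedgehog, cytokine, complement, NRF2, integrated stress response, glycolysis, leukocyte, NK cell and red blood cell lists changed sign. Of the lists, 9 hold a gene without a count in a line, and at its bound the largest change of a list median was 0.27. A gene without a count in a line is known only as below 3 counts.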
